A study of Mus musculus with 6 samples.

Results

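Mast cell genes were examined in injured Achilles tendon tissue of neonatal mice. The list holds 10 genes, namely Cma1, Mcpt4, Tpsb2, Tpsab1, Cpa3, Kit, Ms4a2, Fcer1a, Hdc and Gata2, and was drawn up with the difference between the groups already known. They were found by matching NCBI Gene identifiers to mouse symbols, and 9 of the 10 have a row among the 18099 genes of the table. Tpsab1 has no row and therefore no value here. RNA was sequenced from whole repair tissue of 3 Lysm-Cre; Ampkα1fl/fl mice (called the Cre group below) and 3 Ampkα1fl/fl littermates (the control group), and every mouse had undergone transection of the Achilles tendon. The tissue was taken 7 days after injury. Both groups carry the floxed Ampkα1 alleles, and only the Cre group carries Cre recombinase at the lysozyme M locus, which is active in macrophages, monocytes and granulocytes. In bulk tissue, fewer mast cells and less RNA of a gene per mast cell cannot be told apart.

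Mast cells are resident immune cells that arise from haematopoietic progenitors, mature inside connective tissue and lie along vessels and nerves, including those in the tissue around tendons. They depend on the receptor tyrosine kinase Kit and its ligand, stem cell factor, and bind IgE through the high-affinity receptor FcεRI. Their granules hold histamine and proteases (chymases, tryptases and carboxypeptidase A3) packed onto heparin and serglycin, and are emptied on activation.

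The upstream sequences of 4 of these genes are shown because Cma1, Cpa3 and Mcpt4 had the lowest log2 fold changes (Cre over control group) of the 9 genes and Fcer1a had the opposite sign. They are RefSeq sequences of build GRCm38.p6, written 5′ to 3′ on the minus strand that each gene is transcribed from, and they end just before the outermost transcription start of the gene. They cover chr14:55944676-55944925 for Cma1, chr14:56062311-56062560 for Mcpt4, chr3:20242210-20242431 for Cpa3 and chr1:173227233-173227479 for Fcer1a. Bases that lie inside another transcript model of the same gene were left out (28 for Cpa3 and 3 for Fcer1a). Capitals mark matches to the GATA letters defined below, on either strand, and not measured binding.
Cma1: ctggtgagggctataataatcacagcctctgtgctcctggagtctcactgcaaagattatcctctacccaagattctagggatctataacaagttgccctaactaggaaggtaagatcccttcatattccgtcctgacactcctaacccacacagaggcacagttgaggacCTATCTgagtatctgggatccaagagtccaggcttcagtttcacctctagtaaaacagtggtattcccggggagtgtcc
Mcpt4: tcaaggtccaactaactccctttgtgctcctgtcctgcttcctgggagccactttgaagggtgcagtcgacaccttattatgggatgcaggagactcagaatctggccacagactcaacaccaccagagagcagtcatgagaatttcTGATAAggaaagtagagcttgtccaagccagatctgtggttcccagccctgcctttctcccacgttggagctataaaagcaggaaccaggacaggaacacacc
Cpa3: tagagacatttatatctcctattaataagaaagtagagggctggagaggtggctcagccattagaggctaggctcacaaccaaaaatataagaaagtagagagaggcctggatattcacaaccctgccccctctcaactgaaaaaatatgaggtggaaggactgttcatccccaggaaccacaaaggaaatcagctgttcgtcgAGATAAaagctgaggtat
Fcer1a: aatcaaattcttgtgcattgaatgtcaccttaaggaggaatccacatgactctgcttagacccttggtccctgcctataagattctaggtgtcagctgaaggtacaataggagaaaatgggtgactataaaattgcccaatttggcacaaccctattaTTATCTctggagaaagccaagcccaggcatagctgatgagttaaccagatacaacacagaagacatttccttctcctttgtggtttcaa
The letters searched were GATA with A or T before it and A or G after it, on both strands, within 250 bases upstream of each start. They were present in 6 of the 10 promoter entries of the 8 listed genes that have one (Cma1, Mcpt4, Cpa3, Fcer1a, Hdc and Ms4a2) and absent from the entries of Kit and Gata2, compared with 26.5% of all 32851 mouse promoter entries. The Hdc window lies inside another transcript model of Hdc, and so do the 71 bases of the Ms4a2 window nearest to its start. The match lay 79 bases upstream of the start of the entry in Cma1, 103 in Mcpt4, 46 in Cpa3 and 92 in Fcer1a, and Ms4a2 held 3 matches. The E-box letters CATGTG, or their reverse complement, were found in 1 gene, Fcer1a, 208 bases upstream and apart from the GATA letters, and in 12.3% of all promoters. These matches describe letters and not binding, and Tpsb2 has no promoter entry. Over the aligned stretch of their upstream sequences, Cma1 and Mcpt4 were identical at 159 of 206 bases (77.2%).

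The 4 granule protease genes with a row were all lower in the Cre group, with no overlap between the groups. Of all 14261 genes tested for a difference, 11.4% were lower without overlap. Levels are given as CPM, the reads of a gene relative to library size after TMM scaling. Together, Cma1, Mcpt4, Tpsb2 and Cpa3 had a level of 426, 487 and 342 CPM in the control mice and 216, 224 and 136 CPM in the Cre mice. They supplied most of the mast cell reads, between 89.4% and 90.3% of the reads of the 9 genes in the control group and between 82.1% and 85.9% in the Cre group. Because the list was chosen with this contrast known, the values of its genes are given as a description without a test.

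Cma1 (chr14:55941451-55944675), a chymase-family protease of the granules that has elastase activity in mice, had 2408, 2596 and 1777 reads in the control mice and 1045, 1055 and 684 reads in the Cre mice. The highest Cre library was thus below the lowest control library. Its level was 122 ± 22.7 CPM (SD, n = 3) in the control group and 49.5 ± 10.9 CPM (SD, n = 3) in the Cre group, a log2 fold change of -1.30 ± 0.20 (SE). Leaving out each library in turn gave values between -1.44 and -1.13. Mcpt4 (chr14:56059744-56062310), the main chymase of connective tissue mast cells, had 2164, 2480 and 1751 reads in the control mice and 1235, 1151 and 718 reads in the Cre mice. Here too the groups were apart, with a log2 fold change of -1.06 ± 0.21 (SE). The levels were 115 ± 19.8 CPM (SD, n = 3) and 55.1 ± 14.2 CPM (SD, n = 3). The longest transcripts of the pair were identical at 716 of 947 aligned bases (75.6%). Of the 50-base windows of Mcpt4, 5.48% also occur in Cma2 or Mcpt9, which had at most 4 and at most 2 reads in any library. For Cma1, 5.38% of the windows also occur in Gm48934. A small share of the reads of Mcpt4 and Cma1 could therefore have been assigned to these genes or taken from them.

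Tpsb2 (chr17:25366308-25368096), a tryptase that is stored as a tetramer on heparin, had 1637, 1767 and 1376 reads in the control mice and 972, 992 and 572 reads in the Cre mice. Its groups did not overlap, and its level was 86.2 ± 10.6 CPM (SD, n = 3) against 45.1 ± 12.4 CPM (SD, n = 3). The log2 fold change was -0.93 ± 0.21 (SE). Cpa3 (chr3:20215616-20242209), which encodes the granule carboxypeptidase, which removes residues from the C-terminal end of peptides, had 1851, 2073 and 1335 reads in the control mice and 892, 943 and 548 reads in the Cre mice. This gene was again lower in every Cre library, at 94.8 ± 20.2 CPM (SD, n = 3) in the control group and 42.4 ± 11.3 CPM (SD, n = 3) in the Cre group. Its log2 fold change was -1.16 ± 0.23 (SE).

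**Figure D1:**
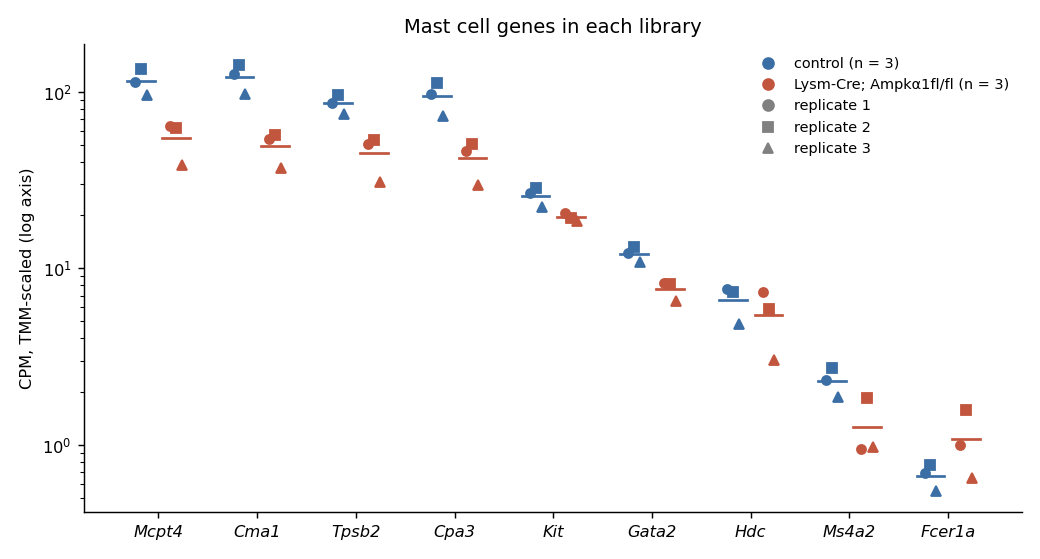
The level of each of the 9 mast cell genes in CPM on a log axis is plotted for the 3 control and the 3 Cre libraries, with a short line at the mean of each group and a symbol for each replicate number. The 7 genes other than Hdc and Fcer1a have every Cre point below every control point, which was so for 11.4% of all genes tested. The points of replicate 3 are the lowest control points for all 9 genes.

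The receptor genes moved less evenly. Kit (chr5:75574987-75656722), the receptor for stem cell factor, had 508, 521 and 407 reads in the control mice and 396, 356 and 342 reads in the Cre mice. The groups did not overlap, but the distance was smaller than for the proteases, with a log2 fold change of -0.41 ± 0.11 (SE). Kit is also made by melanocytes, whose 5 marker genes summed to 9.21 to 11.4 CPM in the control group and 11.5 to 13.5 CPM in the Cre group. Ms4a2 (chr19:11615517-11623790), the signal-amplifying β chain of FcεRI, had 44, 50 and 34 reads in the control mice and 18, 34 and 18 reads in the Cre mice. The CPM values were just apart, with 1.84 in the highest Cre library and 1.86 in the lowest control library, and the log2 fold change was -0.88 ± 0.33 (SE). In TPM, the deposited value scaled to transcript length, the same libraries were in the reverse order, with 1.64 and 1.60. Fcer1a (chr1:173221269-173227232), the IgE-binding α chain, was the only gene of the 9 with a positive log2 fold change, 0.67 ± 0.39 (SE). It had 13, 14 and 10 reads in the control mice and 19, 29 and 12 reads in the Cre mice, and the groups overlapped. These receptor chains rest on fewer than 60 reads per library, so counting error is a large part of their spread. Of the 50-base windows of Ms4a2, 2.69% also occur in Ms4a4b.

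Hdc (chr2:126593659-126624025), the enzyme that makes histamine, had 145, 135 and 88 reads in the control mice and 141, 109 and 56 reads in the Cre mice. Its groups overlapped, and its log2 fold change of -0.29 ± 0.34 (SE) was smaller than its error. Leaving out each library in turn moved it between -0.57 and -0.00. Neutrophils and basophils also make Hdc. The 9 neutrophil markers summed to 11.3, 39.7 and 1.37 CPM in the control mice and to 41.5, 32.4 and 4.54 CPM in the Cre mice. Replicate 3 had the lowest neutrophil sum in each group, and the lowest level of most of the listed genes, Hdc among them. Whether neutrophils or basophils contributed to the Hdc reads was not tested. Gata2 (chr6:88193891-88207032), a transcription factor required for mast cell formation that is also made by endothelial cells, had 233, 241 and 199 reads in the control mice and 159, 151 and 121 reads in the Cre mice. The groups did not overlap, with a log2 fold change of -0.66 ± 0.14 (SE). The 6 endothelial markers summed to 625 to 682 CPM in the control group and 564 to 639 CPM in the Cre group.

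Thus 8 of the 9 genes had a negative log2 fold change, compared with 50.6% of the 14261 genes tested, and all 9 had passed the filter on low counts. For 7 of the 9, every Cre library lay below every control library, which was so for 11.4% of all genes tested. The median log2 fold change of the 9 genes was -0.88, beside -0.002 for all genes tested. A gene was called when its adjusted p in edgeR was under 0.05, which held for 0.898% of all genes tested (0.568% lower). Of the 9 genes, 1 was called lower (Cma1). This call was lost on leaving out any of the 3 control libraries or Cre replicate 1 or 3, which each gave 0 calls. When replicate number entered as a block, 3 were lower (Cma1, Cpa3 and Mcpt4; background 0.252%), and with DESeq2 5 were lower (Cma1, Cpa3, Gata2, Mcpt4 and Tpsb2; background 2.65%). On simulated data, the share of false calls at this threshold was 6.3% with edgeR, 11.5% with the replicate block and 18.9% with DESeq2. As the list was chosen from this contrast, nothing is read from the counts of its genes.

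Levels can be compared between genes only after division by transcript length, as in the deposited TPM. In TPM, the order from highest to lowest in the control group was Mcpt4, Cma1, Tpsb2, Cpa3, Kit, Gata2, Hdc, Ms4a2 and Fcer1a. The mean level was 343 TPM for Mcpt4 and 316 TPM for Cma1 in the control group, and 167 TPM and 130 TPM in the Cre group. The chymases overlapped in range, although Mcpt4 exceeded Cma1 in 6 of 6 libraries. Next came 220 TPM for Tpsb2 and 166 TPM for Cpa3 in the control group, whereas Kit had a level of 10.6 TPM, well apart from them in both groups. At the lower end, Gata2 exceeded Hdc in 4 of 6 libraries, with overlapping ranges in the Cre group. Ms4a2 lay just above Fcer1a in all 3 control libraries, with overlapping ranges. In the Cre group this order was reversed, with 0.78, 1.64 and 0.81 TPM for Ms4a2 and 2.83, 4.67 and 1.80 TPM for Fcer1a, and the ranges were apart. The order of these genes rests on 10 to 29 reads of Fcer1a and 18 to 50 of Ms4a2 per library. The TPM of Ms4a2 also depends on how its reads were divided between transcript models.

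The ratios between the 9 genes, which do not depend on library size, show how unevenly the list differed. Cma1 over Mcpt4, in reads, was 1.11, 1.05 and 1.01 in the control mice and 0.846, 0.917 and 0.953 in the Cre mice. Cma1 over Tpsb2 was 1.47, 1.47 and 1.29 against 1.08, 1.06 and 1.2. Within the proteases, Cma1 was therefore the gene with the lower share in the Cre group relative to its chymase and tryptase partners. Kit over Cpa3 was 0.274, 0.251 and 0.305 in the control mice and 0.444, 0.378 and 0.624 in the Cre mice. Hdc over Cpa3 was 0.0783, 0.0651 and 0.0659 against 0.158, 0.116 and 0.102. The receptor and the histamine enzyme thus had more reads per Cpa3 read in every Cre library. Fcer1a over Ms4a2, the α over the β chain of the IgE receptor, was 0.295, 0.28 and 0.294 in the control mice and 1.06, 0.853 and 0.667 in the Cre mice. Neither of these genes had more than 50 reads in a library. Among the ratios of Kit, Hdc, Gata2 and Ms4a2 to Cpa3, only that of Ms4a2 overlapped between the groups, with 0.0238, 0.0241 and 0.0255 against 0.0202, 0.0361 and 0.0328.

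**Figure D2:**
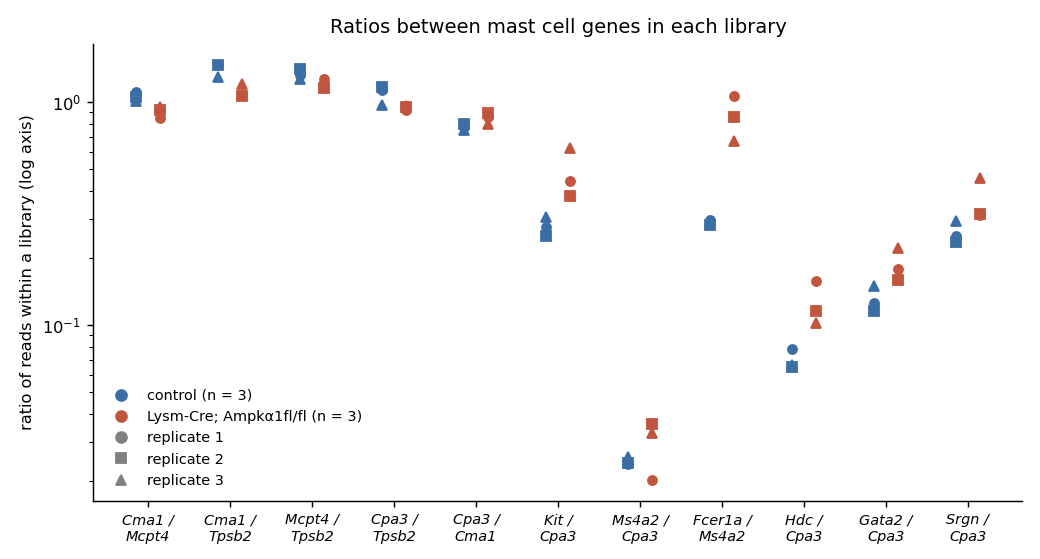
Ratios of reads between pairs of mast cell genes are plotted for each library of the control and the Cre group. The Fcer1a over Ms4a2 ratio is between 0.28 and 0.295 in the control libraries and between 0.667 and 1.06 in the Cre libraries. Neither gene had more than 50 reads in a library.

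The libraries of a group also moved together across the list. Control replicate 3 had the lowest level of all 9 genes among the control mice, and Cre replicate 3 the lowest of 8 of the 9 among the Cre mice, the exception being Ms4a2. The 6 skeletal muscle markers summed to 122, 394 and 2191 CPM in the control mice and to 2334, 749 and 6299 CPM in the Cre mice, so that the library with the most muscle RNA in each group had the least mast cell RNA. The 9 mast cell genes summed to 476, 540 and 383 CPM in the control mice and to 254, 261 and 166 CPM in the Cre mice. The 8 macrophage markers summed to 1061 to 1104 CPM in the control group and 695 to 879 CPM in the Cre group, the 9 erythroid markers to 2001 to 2975 CPM and 677 to 985 CPM, and the 5 megakaryocyte and platelet markers to 46.9 to 62.2 CPM and 30.5 to 42.2 CPM. Of the tested erythroid genes 6 of 8 were called lower with edgeR, and 1 with the replicate block, although the globin copies share reads. No macrophage marker was called by edgeR at the same threshold (DESeq2 called Adgre1, Csf1r and Mrc1, all lower), and at an unadjusted p under 0.05 5 of the 8 were lower and 1 was higher, where the background is 8.54% lower and 5.97% higher. The part of these lists in the mast cell values was not tested.

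**Figure D3:**
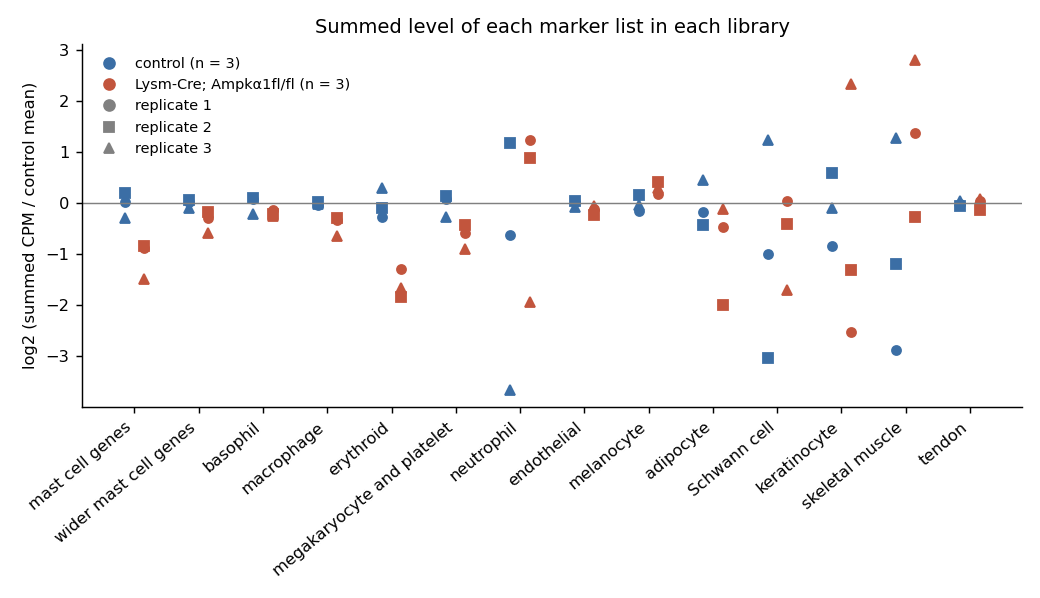
For each marker list, the log2 ratio of the summed CPM of a library to the mean of the control group is plotted for the 3 control and the 3 Cre libraries, with a line at 0. The 9 mast cell genes, the macrophage list, the erythroid list and the platelet list have every Cre point below every control point, whereas the tendon list overlaps between the groups.

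Other genes used by mast cells were taken from lists written by role, with earlier results of these data known. Their counts and p-values are therefore given as a description. Of 28 such genes 22 passed the filter on low counts, and 21 of these had a negative log2 fold change (median -0.42). For 14 of the 22 the groups did not overlap in CPM and the Cre group was lower, beside 11.4% of all genes tested. In the edgeR test 1 of the 22 was called, and 12 were lower at an unadjusted p under 0.05, compared with 8.54% of all genes. Srgn, serglycin, the proteoglycan core on which granule contents are stored, was the gene called. It had 466, 490 and 392 reads in the control mice and 279, 296 and 250 reads in the Cre mice, a log2 fold change of -0.73 ± 0.11 (SE, adjusted p in edgeR = 0.043). Many blood cells make Srgn as well, and the edgeR adjusted p was 0.0525 with the replicate block. The call also fell away under upper-quartile scaling and without any 1 of the control libraries or Cre replicate 1 or 3.

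Among the receptors, Mrgprb1 and Mrgprb2, mast cell receptors of the Mas-related family of which Mrgprb2 senses peptides and drugs, had the lowest values. Mrgprb1 had 208, 235 and 157 reads in the control mice and 114, 102 and 80 reads in the Cre mice, a log2 fold change of -1.04 ± 0.19 (SE, adjusted p in edgeR = 0.0731). It passed the threshold with DESeq2. Mrgprb2 had 99, 122 and 91 reads against 71, 48 and 23 reads, a log2 fold change of -1.16 ± 0.37 (SE, adjusted p in edgeR = 0.212). The groups did not overlap for either receptor. Fcer1g, the γ chain that FcεRI shares with Fc receptors of macrophages, had a log2 fold change of -0.39 ± 0.10 (SE, adjusted p in edgeR = 0.153). P2rx7, Adora3, Il1rl1 and Csf2rb had values between -0.46 and -0.03, and their groups overlapped. Adora3 overlaps the gene Tmigd3, so its reads are uncertain.

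Granule and mediator genes had values of the same sign as the proteases with few exceptions. Slc18a2, the transporter that loads amines into granules, had a log2 fold change of -0.77 ± 0.25 (SE, adjusted p in edgeR = 0.214), and Maob, a monoamine oxidase, one of -0.71 ± 0.21 (SE, adjusted p in edgeR = 0.19). Tph1, which makes serotonin, had the only positive value of the 22 genes, 0.81 ± 0.67 (SE), with overlapping groups. The 5 lipid mediator enzymes, which make leukotrienes and prostaglandins, had lower CPM in the Cre group without overlap in all 5 genes, beside 11.4% of all genes tested. The distance was small for Alox5ap, with 24.07 CPM in the lowest control library and 24.01 CPM in the highest Cre library, and for Ltc4s, with 1.093 and 1.082 CPM. In TPM the groups overlapped for Ltc4s, Alox5, Ptgs1 and Alox5ap and were apart for Hpgds. None was called by edgeR or DESeq2, and 3 had an unadjusted p under 0.05. Their log2 fold changes were -1.04 for Ltc4s, -0.78 for Alox5, -0.55 for Ptgs1, -0.36 for Hpgds and -0.35 for Alox5ap, with edgeR adjusted p between 0.168 and 0.439. Of the transcription factors Tal1 had -0.48, Spi1 -0.34 and Mitf -0.06, and none of the 3 was called by edgeR or DESeq2, with 2 at an unadjusted p under 0.05. Gata1, which was not tested, had 11, 5 and 5 reads in the control mice and 3, 2 and 3 reads in the Cre mice. In bulk tissue the reads of these enzymes and transcription factors cannot be assigned to mast cells. The summed macrophage markers were lower as well (1061 to 1104 CPM in the control group, 695 to 879 CPM in the Cre group). Of these 8 markers, 6 had a negative log2 fold change, while Cd68 and Mertk had positive ones. The summed erythroid markers were also lower (2001 to 2975 CPM and 677 to 985 CPM). The part of other cell types in these values was not tested.

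**Figure D4:**
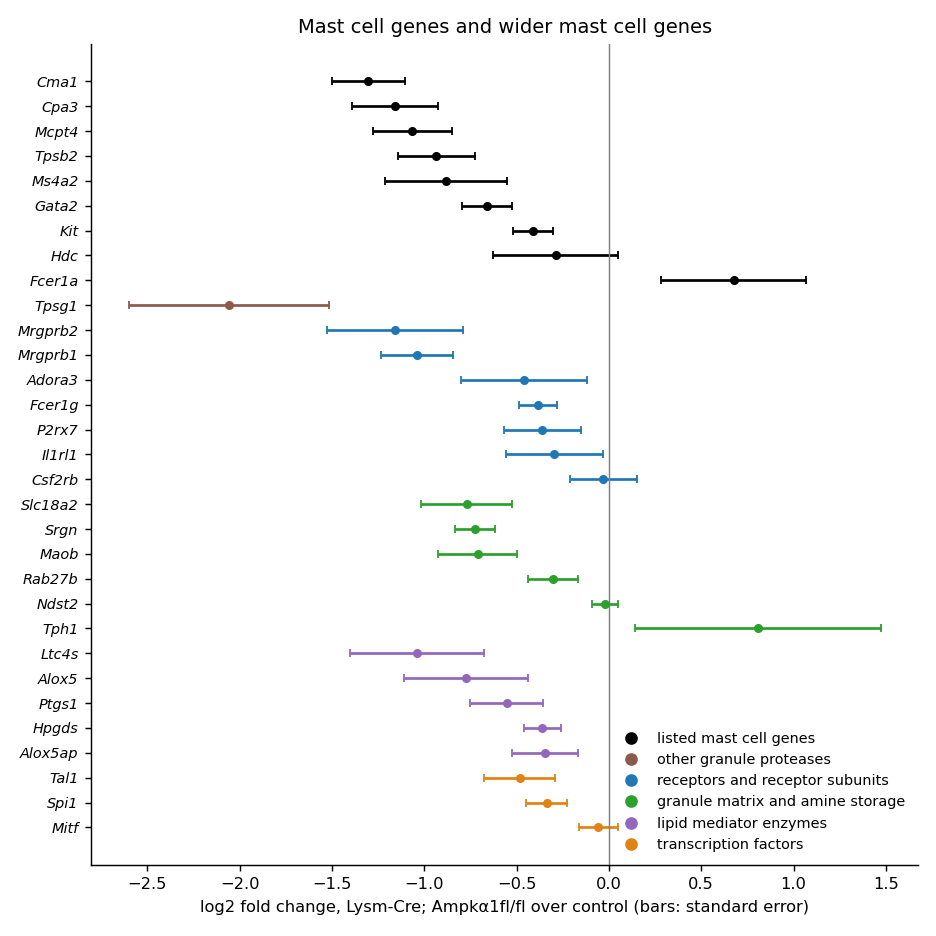
Log2 fold changes (Cre over control group) with standard errors are plotted for the 9 listed mast cell genes and for 22 other mast cell genes, coloured by role. The points of Fcer1a and Tph1 lie above 0 and all other points below it.

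Mast cells of the mucosa use other chymase genes, Mcpt1 and Mcpt2, and these were almost absent. Mcpt1 had 1 read in 1 of the 6 libraries, and Mcpt2 had at most 3 reads in any library. The related genes Mcpt9 and Cma2 had at most 2 and at most 4 reads in any library. At these depths, 3 reads correspond to between 0.154 and 0.166 CPM. Mcpt1, Mcpt2, Mcpt9 and Cma2 lie in the chymase gene cluster of chromosome 14 with Cma1 and Mcpt4. The tested genes on either side of the mast cell chymases had values at or above 0. Nfatc4, Nynrin, Khnyn and Sdr39u1 had log2 fold changes of 0.26, 0.07, 0.12 and 0.14, and the granzyme genes Gzme and Gzmd had 0.37 and 0.02, with no gene called by edgeR. On chromosome 17, beside Tpsb2, the tryptase gene Tpsg1 had 13, 11 and 10 reads in the control mice and 5, 2 and 1 reads in the Cre mice. Its log2 fold change was -2.06 ± 0.54 (SE, adjusted p in edgeR = 0.15). Its neighbour Cacna1h, which overlaps it by 158 bases, had a value of -0.10 (edgeR adjusted p = 0.899).

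**Figure D5:**
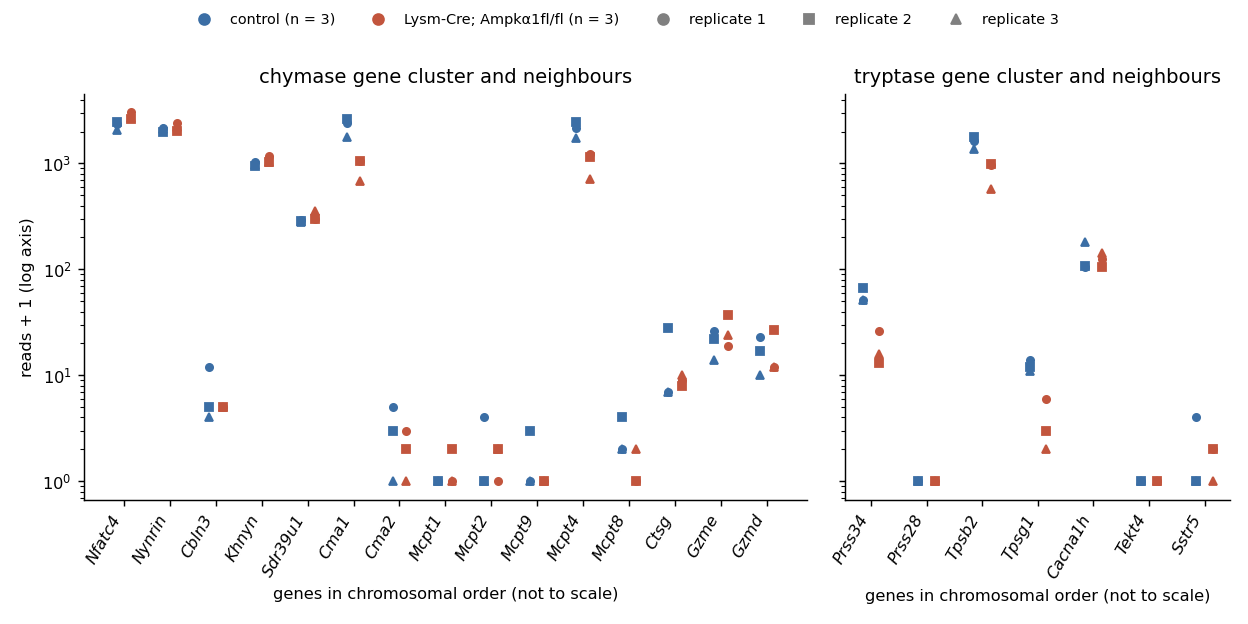
Reads plus 1 on a log axis are plotted for each library, with the genes of the chymase and the tryptase gene cluster in chromosomal order. Cma1, Mcpt4, Tpsb2, Tpsg1 and Prss34 have Cre points below all control points, while Nynrin and Cacna1h overlap between the groups.

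Downstream of the receptors, 13 genes of IgE and Kit signalling were tested and none was called by edgeR or DESeq2, while 3 were lower at an unadjusted p under 0.05. Their median log2 fold change was -0.21. The lowest value was that of Btk, a kinase of FcεRI signalling that B cells and macrophages also make, at -0.52 ± 0.13 (SE, adjusted p in edgeR = 0.137). Syk, the kinase recruited to FcεRI, had -0.04, and its groups overlapped. The adaptor Lat2 had a value of -0.38 with overlapping groups, and the kinase Lyn one of -0.21.

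Of the factors that feed or attract mast cells 6 were tested and none was called by edgeR. Kitl, stem cell factor, the ligand of Kit, had 1242, 1260 and 1090 reads in the control mice and 922, 976 and 902 reads in the Cre mice. Its groups did not overlap, with a log2 fold change of -0.38 ± 0.07 (SE, adjusted p in edgeR = 0.075), and DESeq2 called it. Tslp, an epithelial cytokine, had -1.04 ± 0.45 (SE, adjusted p in edgeR = 0.357). Il33, an alarmin, had -0.20, Tgfb1 had -0.04 and the chemokine Cxcl12 had -0.01. Il4 had 1 read in 1 library, and Il3 and Il9 have no row.

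Basophils share several markers with mast cells. Prss34, a tryptase of basophils and some mast cells, had 50, 65 and 50 reads in the control mice and 25, 12 and 15 reads in the Cre mice, a log2 fold change of -1.68 ± 0.31 (SE, adjusted p in edgeR = 0.0698). Cd200r3, a receptor on both cell types, had 47, 51 and 37 reads against 14, 29 and 20 reads, a log2 fold change of -1.11 ± 0.32 (SE, adjusted p in edgeR = 0.177). The protease that marks basophils, Mcpt8, had at most 3 reads in any library, and Il3ra had a value of 0.05. Prss34 was called with DESeq2 and when at least 10 reads were required in every library.

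Genes whose level followed the mean of the listed genes most closely over the 6 libraries were Mmrn1, with a Pearson r of 0.999, and Tshz2, with 0.998, followed by Slk, Sned1, Slc45a3, Ecm1, Gmfg, Myo1g, Sgk3 and Dab2, each with at least 0.986. The measure was log2 CPM over 6 points, which all genes share, and 370 of 13600 genes reached a correlation of 0.9. Among 20 other mast cell genes compared, 10 reached it. The centred mean of the listed genes was 0.41, 0.55 and 0.09 in the control mice and -0.22, -0.07 and -0.76 in the Cre mice. A gene lower in the Cre group can therefore reach a high correlation through the group difference. Nothing is read from these counts. The like genes differed in the size of their difference. Sned1 had a log2 fold change of -0.87, Gmfg -0.89, Slc45a3 -0.82 and Mmrn1 -0.68, whereas Tshz2 had -0.09 and Slk -0.08.

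The libraries held between 18076805 and 19479887 reads, and the 10 most abundant genes took 17.2% to 18.4% of them. The tissue label fits its markers, since 7 tendon genes (Scx, Tnmd, Mkx, Fmod, Thbs4, Col1a1 and Tnc) summed to between 53281 and 62358 CPM in every library and none was called by edgeR or DESeq2, with 0 at an unadjusted p under 0.05. Lyz2, which encodes lysozyme M and is the locus of the Cre, had 7372 to 7778 reads in the control mice and 8 to 15 reads in the Cre mice, while the floxed gene Prkaa1 had a log2 fold change of -0.08 ± 0.09 (SE, adjusted p in edgeR = 0.744) in whole tissue. Schwann cell markers ranged from 416 to 8092 CPM, adipocyte markers from 64.6 to 350 CPM and keratinocyte markers from 2.03 to 58.9 CPM over all 6 libraries, with none called by edgeR, and the groups overlapped in each of these sums.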

How the data were processed

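RNA of whole repair tissue was sequenced at BGI from 6 mice, 3 in each group, grouped by the sample titles. Deposited by the authors were, for each of 65053 RefSeq transcripts, an estimated count that is not normalized and a TPM value scaled to transcript length and library. The aligner, counting tool and strandedness are not given in the sources used here, and the build, GRCm38.p6, comes from the submitters' processing notes. Another 20 columns (6 FPKM, 6 normalized read counts and 8 averages) were not used. Estimated counts were summed per gene and rounded, and 18049 of 18099 genes (99.72%) were matched to a symbol. In R 4.3.3, edgeR 4.0.16 (TMM, filterByExpr, quasi-likelihood F test, Benjamini-Hochberg adjustment, threshold 0.05) was run on 14261 genes and checked on simulated data. There, 200 genes were given a log2 change of 1. False calls made up 6.3% of the calls with edgeR, 11.5% with the replicate block and 18.9% with DESeq2. Standard errors were taken as the log2 fold change over the root of F.

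The listed genes and the other gene lists were chosen with earlier results of these data known. Named were all listed genes, in every other list up to 5 genes with the largest absolute change and any called, the Cre locus and target, the 10 genes most like the list's mean (at least 1 CPM, log2 with a prior count of 2), cluster neighbours, and genes whose role made them needed, chosen after their values were seen. The libraries come from separate mice. The labels give replicate numbers but no pairing, so the main fit was unpaired and replicate number entered as a block only as an alternative. Across genes, the deviations of same-numbered libraries correlated weakly (r = 0.184, 0.118 and 0.31). Control replicate 1 correlated more with Cre replicate 2 (0.501), and control replicate 2 slightly more with Cre replicate 3 (0.127). Alternatives were RLE and upper-quartile scaling, no filter or at least 10 reads in every library, DESeq2 1.42.0, the replicate block, a minimum log2 fold change of 1, TPM with a pseudocount of 0.1 or 1, and leaving out each library. Depth limits cover counting error only.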

Additional observations from a re-analysis of the deposited data

How the results depend on the processing

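All 9 listed genes kept the sign of their log2 fold change under every alternative fitted to the counts. The number of all genes called, 128, became 680 with DESeq2, 53 with a minimum log2 fold change of 1 in either direction, 47 with the replicate block and 8 to 276 on leaving out 1 library. Of the listed genes, 1 was called, which became 5 with DESeq2, 3 with the replicate block, 0 with upper-quartile scaling and 0 to 1 on leaving out 1 library. Of the other mast cell genes, 1 was called, which became 2 with DESeq2 and 0 with the replicate block, with upper-quartile scaling and with a minimum log2 fold change of 1 in either direction, and 0 to 1 on leaving out 1 library. The median log2 fold change of the listed genes, -0.88, was -0.58 as log2(TPM + 1) and -1.08 to -0.72 on leaving out 1 library. The cause of these shifts was not tested. The replicate block changed no sign of a listed gene, and the only calls it changed among the mast cell genes are those given here. Receptor chain genes with few reads (Ms4a2, Fcer1a) and the genes at or under 3 reads are limited by depth.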

Other observations

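The deposited estimates divide the reads of some mast cell genes between transcript models differently from library to library. All reads of Ms4a2 were given to 1 of its 5 models in control replicates 1 and 2 and Cre replicates 1 and 3, and not to the same model in each. The first of the curated models of Gata2 took 46.2%, 19.9% and 0% of its reads in the control mice and 13.9%, 0% and 0% in the Cre mice. The second model of Kit took between 45.8% and 78% over the 6 libraries. Cpa3 was steadier, with at least 97.3% in its curated model. The sums per gene used above do not depend on this division, whereas TPM does.

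Eosinophil markers were too low to test in these libraries, and 0 of the 6 passed the filter. They summed to 1.54 to 6.01 CPM in the control group and 0.487 to 2.24 CPM in the Cre group. The highest value was that of control replicate 2, where Epx, the eosinophil peroxidase, had 22 reads and Prg2, the major basic protein, 49.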
